A study of Felis catus with 23 samples.

Results

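The miR-181 family was described in serum through its 4 mature 5p names on a microRNA (miRNA) array, hsa-miR-181a-5p, hsa-miR-181b-5p, hsa-miR-181c-5p and hsa-miR-181d (written below without the prefix). These were all the probes printed under those names, 8 of the 4944 miRNA probes, and 4 of the 2026 miRNA names on the array. They were chosen by family name and not by a measured value, although earlier results of these data were known. The array was designed for human and human viral miRNAs, so each name is the human name of a probe hybridised with cat RNA.

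Serum was compared between 11 cats (Felis catus) with hypertrophic cardiomyopathy (HCM) and 12 healthy cats, with 1 array per cat. HCM is a thickening of the heart muscle and a common heart disease of cats. The labels give each animal only as diseased or healthy. Age, breed, sex, medication and stage of disease are not given in the sources used here, so the groups could differ in any of them. In both groups the blood had clotted for 20 min before it was spun, so the samples are serum and not plasma, and the p-values measure the spread between single cats.

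The miRNAs of this family are short RNAs that guide Argonaute proteins to messenger RNAs and lower their translation and stability. The 4 mature 5p forms share their seed, the stretch near the 5′ end that pairs with targets, and differ by a few bases elsewhere. miR-181a and miR-181b come from clusters that hold both of them, and miR-181c and miR-181d from another cluster. miR-181a-5p and miR-181c-5p are nearly alike in sequence, as are miR-181b-5p and miR-181d. The family is best known from lymphocytes: miR-181a sets the sensitivity of developing T cells to antigen, and the family shapes early B and T cell development. The miRNAs in serum come from many cell types, and a change in the number of a source cell and a change in its RNA content cannot be told apart there.

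The arrays were carried on 3 slides, with 3 HCM and 4 healthy arrays on slide 1 and 4 of each on slides 2 and 3. HCM arrays always took the upper row of a slide and healthy arrays the lower, so row and group cannot be told apart. Between 323 and 615 names were detected per array, and the 75th percentile intensity used for scaling ranged from 90.5 to 699. The 3 dimmest arrays were all healthy, replicates 20, 22 and 25. The log2 of that percentile was 8.22 ± 0.49 in HCM (SD, n = 11) and 7.80 ± 0.91 in healthy sera (SD, n = 12; 2-sided permutation p = 0.189). The values below are log2 of the processed spot signal after scaling each array to this percentile. Scaled signals below 5.65 were set to that floor, which is 2.50 on the log2 scale. A name counted as detected in a serum if 50% or more of its spots stood well above background. Levels of different names are not ranked against each other, because each probe has its own response.

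hsa-miR-181a-5p was detected in all 23 sera. In the HCM cats the scaled log2 signal was lowest at 5.14, had a median of 6.99 and was highest at 8.0. In the healthy cats it was lowest at 6.0, had a median of 7.27 and was highest at 8.43. The ranges overlapped over most of their length, although the 3 lowest sera (HCM replicates 12, 2 and 11 at 5.14, 5.65 and 5.94) were all from diseased cats and the 2 highest (healthy replicates 21 and 19 at 8.43 and 8.22) from healthy cats. The unscaled intensity of its brighter probe ran from 29.9 to 330, with a median of 153. Its mean was 6.77 ± 0.91 in HCM (SD, n = 11) and 7.14 ± 0.76 in healthy serum (SD, n = 12). The difference, HCM minus healthy, was -0.37 on the log2 scale (SE 0.33, 95% interval -1.05 to 0.30, limma adjusted p = 0.799). Of the 11 HCM sera, 6 lay below the healthy median.

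hsa-miR-181b-5p, the neighbour of miR-181a in its clusters, was detected in 22 of 23 sera. The exception was HCM replicate 2, where 35.7% of its spots were well above background. Its scaled log2 signal in HCM was lowest at 3.25, had a median of 4.43 and was highest at 5.43. In healthy serum the lowest, median and highest values were 3.86, 4.59 and 5.32. The healthy sera lay entirely inside the span of the HCM sera. The mean was 4.34 ± 0.60 in HCM (SD, n = 11) and 4.59 ± 0.44 in healthy serum (SD, n = 12), a difference of -0.25 (SE 0.21, 95% interval -0.69 to 0.19, limma adjusted p = 0.799). Of the HCM sera, 7 of 11 lay below the healthy median.

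hsa-miR-181c-5p was close to the detection limit and was detected in 7 sera, 3 of 11 HCM and 4 of 12 healthy. Its unscaled intensity ran from 0.516 to 11.7, with a median of 4.90. On the scaled log2 scale 12 of the 23 sera stood at the floor, 6 in each group. In HCM the lowest and the median were both at the floor of 2.50 and the highest was 3.36, in replicate 9. In healthy serum the lowest was at the floor, the median was 2.57 and the highest was 3.12, in replicate 25. The highest healthy value came from one of the dim arrays, where 0 of its spots were well above background. The mean was 2.62 ± 0.26 in HCM (SD, n = 11) and 2.68 ± 0.25 in healthy serum (SD, n = 12), a difference of -0.06 (SE 0.13, 95% interval -0.32 to 0.20, limma adjusted p = 0.905). With values held at the floor, this interval describes floored signals and not the abundance of the miRNA.

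hsa-miR-181d, which lies beside miR-181c in the genome, was detected in 11 sera, 6 of 11 HCM and 5 of 12 healthy. In HCM its lowest, median and highest scaled log2 signals were 2.50, 2.73 and 3.52, with 3 sera at the floor. In healthy serum they were 2.50, 2.86 and 3.71, with 1 serum at the floor. The ranges were nearly the same, and the highest healthy value was again that of replicate 25, an array on which the name was not detected. The mean was 2.79 ± 0.36 in HCM (SD, n = 11) and 2.90 ± 0.35 in healthy serum (SD, n = 12), a difference of -0.11 (SE 0.16, 95% interval -0.43 to 0.21, limma adjusted p = 0.850). Of the HCM sera, 9 of 11 lay below the healthy median.

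**Figure D1:**
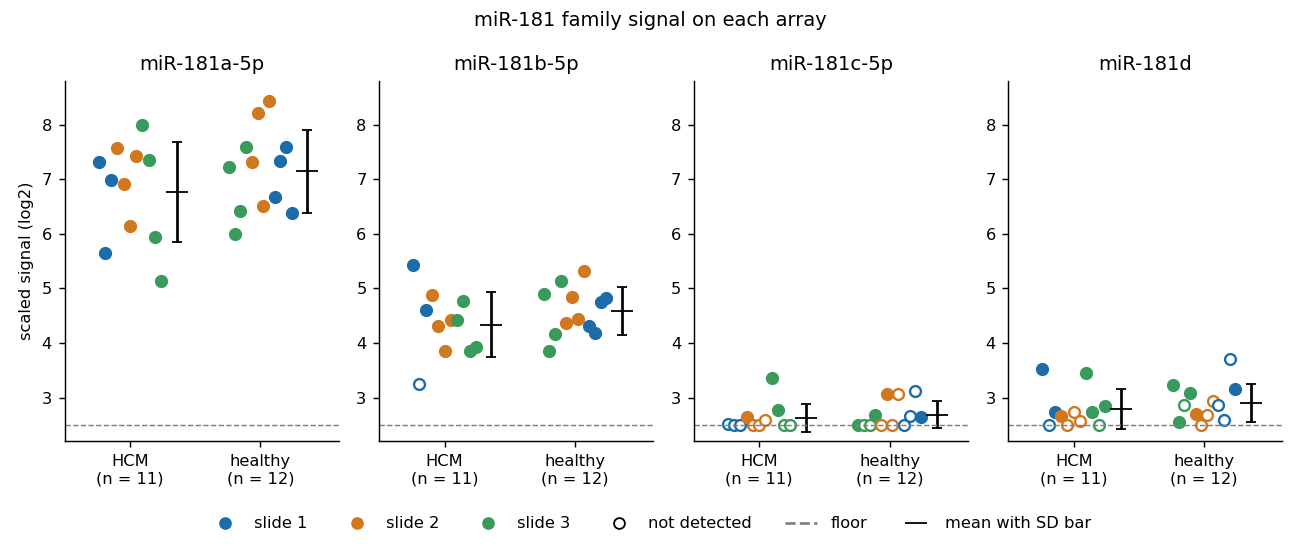
Scaled log2 signal (vertical axis) of the 4 miR-181 names in each serum, HCM (n = 11) and healthy (n = 12) side by side, coloured by slide. Open points mark arrays on which the name was not detected, the dashed line is the floor at 2.50, and the bars give mean and SD. The groups overlap for each name, and miR-181c-5p stands at the floor in 12 of 23 sera.

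None of the 4 names passed the threshold of an adjusted p of 0.05. Over all 543 names tested the same limma fit called 0 names, which is 0.00%, while 37 names (6.81%) had an unadjusted p under 0.05. The 4 miR-181 names were not among those 37, with unadjusted p between 0.254 and 0.638. All 4 had a lower mean in HCM, beside 66.5% of all tested names. The median difference of all tested names was -0.10. Relative to it, miR-181a-5p was at -0.28, miR-181b-5p at -0.15, miR-181c-5p at 0.04 and miR-181d at -0.01. Of all tested names, 8.29% had a lower difference than miR-181a-5p and 22.7% a lower one than miR-181b-5p. These shares depended on the processing. They were 23.1% and 35.2% in the authors' deposited values, 23.9% and 49.9% without scaling, and 4.60% and 17.9% after quantile normalization.

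The sign of the differences depended on the scaling between arrays. Without scaling, miR-181a-5p was at 0.05, miR-181b-5p at 0.21, miR-181c-5p at 0.08 and miR-181d at 0.03, all higher in HCM. The median of all names then was 0.21, and 82.7% of names were higher in HCM. In the authors' deposited log2 table the 4 differences were -0.21 for miR-181a-5p (95% interval -0.90 to 0.49), -0.11 for miR-181b-5p (-0.55 to 0.34), -0.17 for miR-181c-5p (-0.64 to 0.30) and -0.04 for miR-181d (-0.36 to 0.27). All 4 were below 0, beside 52.5% of the names in that table. The limma adjusted p lay between 0.895 and 0.957, and 1 of 965 names (0.104%) was called there, none of them a miR-181 name.

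**Figure D2:**
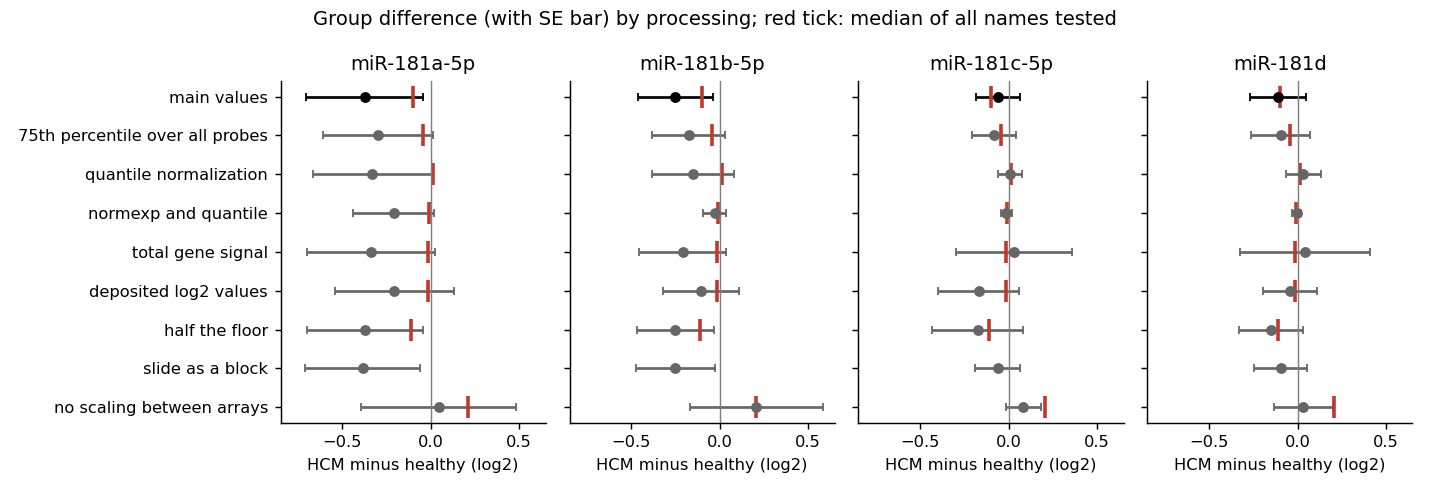
HCM minus healthy log2 difference (horizontal axis) of each miR-181 name with its SE under 9 ways of processing, from 11 HCM and 12 healthy arrays. The red tick is the median difference of all names tested in the same way and was not drawn for the slide block. miR-181a-5p lies at -0.37 with the main values and at 0.05 without scaling, and its 95% interval with the main values runs from -1.05 to 0.30.

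Detection was also compared by group, since a difference in means near the floor depends on the floor. The calls were made on unscaled spots, so they are not corrected for array brightness. The mean number of names detected was 499 in HCM and 452 in healthy sera (2-sided permutation p = 0.182). Healthy replicates 20, 22 and 25, the dimmest arrays, detected neither miR-181c-5p nor miR-181d. In 2-sided Fisher's exact tests, p was 0.478 for miR-181b-5p (10 of 11 HCM and 12 of 12 healthy), 1 for miR-181c-5p and 0.684 for miR-181d. Of 273 tested names detected on some but not all arrays, 0 (0.00%) passed the adjusted threshold and 17 (6.23%) had an unadjusted exact p under 0.05. The counts moved with the rule for a call. With the scanner software's own call per name, miR-181c-5p was detected in 14 sera (7 HCM, 7 healthy) and miR-181d in 19 (10 HCM, 9 healthy). When all spots had to be well above background, miR-181c-5p was left in 2 sera, both HCM, and miR-181d in 8, of which 4 were HCM.

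The spread between cats differed among the 4 names. The SD over all 23 arrays was 0.84 for miR-181a-5p, larger than that of 86.0% of the tested names, whose median SD was 0.54. For miR-181b-5p it was 0.52, with 46.8% of names below it. The SDs of 0.25 for miR-181c-5p and 0.35 for miR-181d were low in that order (3.31% and 12.9% of names below them), with 12 and 4 sera held at the floor. In the deposited values, which had no such floor, miR-181c-5p had an SD of 0.54 and ran from 1.53 to 3.47. There miR-181d had an SD of 0.32 and ran from 2.66 to 3.75.

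Each miR-181 name had 2 probes with 15 spots each. The coefficient of variation over spots of the brighter probe was taken only on arrays that detected it. These were 23 arrays for miR-181a-5p, 22 for miR-181b-5p, 7 for miR-181c-5p and 11 for miR-181d. Its median was 5.92% for miR-181a-5p, 9.34% for miR-181b-5p, 16.3% for miR-181c-5p and 14.6% for miR-181d. The 2 probes of a name followed each other over the 23 arrays, with r of 0.99 for miR-181a-5p, 0.97 for miR-181b-5p, 0.66 for miR-181c-5p and 0.95 for miR-181d. On the deposited values the r of the 2 miR-181c-5p probes was 0.91. The dimmer probe gave HCM minus healthy differences of -0.34, -0.21, 0.03 and -0.10 for miR-181a-5p, miR-181b-5p, miR-181c-5p and miR-181d, so the 2 probes of miR-181c-5p disagreed in sign. The dimmer miR-181c-5p probe was detected in 3 sera, all HCM. Of 1075 probes tested singly, 0 (0.00%) were called by limma. Of 1750 deposited miRNA probes tested singly 13 (0.743%) were called, none of them a miR-181 probe.

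The opposite arms of the hairpins, the 3p or passenger arms, were rarely detected. miR-181a-3p, miR-181a-2-3p and miR-181b-3p were not well above background on any array (0 of 23 each). miR-181c-3p was detected in 7 sera, 6 HCM and 1 healthy, through 1 of its 4 probes. These calls were not corrected for array brightness either. The dimmest arrays, healthy replicates 20, 22 and 25, were among those without detection. miR-181c-3p was among the 273 names of the detection test. Of these, 0 (0.00%) passed the adjusted threshold and 17 (6.23%) had an unadjusted exact p under 0.05. In HCM replicates 5 and 12 and healthy replicate 15 miR-181c-3p was detected, yet its scaled value stood at the floor. The scaled log2 signal of miR-181c-3p was lowest at 2.50 in both groups, with a median at the floor in both. It was highest at 3.40 in HCM and 3.45 in healthy serum. That healthy value came from replicate 20, the dimmest array, where 0 of the miR-181c-3p spots were well above background. The means were 2.71 ± 0.32 (SD, n = 11) and 2.68 ± 0.32 (SD, n = 12), a difference of 0.03 (SE 0.15, limma adjusted p = 0.973). With the scanner's own call per name it was detected in 9 HCM and 6 healthy sera.

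By slide, the means over both groups were 6.85, 7.32 and 6.71 for miR-181a-5p and 4.48, 4.55 and 4.38 for miR-181b-5p on slides 1, 2 and 3. For miR-181c-5p they were 2.63, 2.67 and 2.66, and for miR-181d 3.01, 2.66 and 2.91. A limma F test of the slides gave adjusted p of 0.531, 0.900, 0.979 and 0.471 for miR-181a-5p, miR-181b-5p, miR-181c-5p and miR-181d. Of all 543 names 0 (0.00%) passed that test, and 68 (12.5%) had an unadjusted p under 0.05. Detection of miR-181d ran from 2 of 8 sera on slide 2 to 6 of 8 on slide 3, and was 3 of 7 on slide 1.

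The HCM minus healthy difference of miR-181a-5p was -0.35, -0.60 and -0.20 on slides 1, 2 and 3. That of miR-181b-5p was -0.085, -0.37 and -0.27. Both stayed below 0 on each slide, as did miR-181d with -0.16, -0.085 and -0.051. miR-181c-5p was at -0.22 and -0.23 on slides 1 and 2 and at 0.24 on slide 3. The test of whether the group difference itself varied between slides gave an adjusted p of 0.998 for each of the 4 names, and 0 of 543 names (0.00%) passed it, with 13 (2.39%) at an unadjusted p under 0.05.

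Names were also compared within the same array, for the 6 pairs of names. The scaling cancels in miR-181a-5p minus miR-181b-5p, where no value stood at the floor, but not fully in the 5 pairs with miR-181c-5p or miR-181d, since the floor was set after scaling. The log2 difference miR-181a-5p minus miR-181b-5p was 2.43 ± 0.61 in HCM (SD, n = 11) and 2.55 ± 0.54 in healthy serum (SD, n = 12), which differ by -0.12 (2-sided permutation p = 0.608). These offsets hold the response of each probe and were only compared between groups. The group difference was -0.31 for miR-181a-5p minus miR-181c-5p, -0.26 for miR-181a-5p minus miR-181d, -0.19 for miR-181b-5p minus miR-181c-5p, -0.14 for miR-181b-5p minus miR-181d and 0.05 for miR-181c-5p minus miR-181d. The permutation p adjusted over the 6 pairs lay between 0.696 and 0.726. The sign of the last of these turned negative in the deposited values (-0.13), and that of miR-181b-5p minus miR-181c-5p turned positive (0.06).

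Over the 23 sera, miR-181a-5p and miR-181b-5p moved together. Their Pearson r was 0.75 (2-sided permutation p = 3e-05, adjusted over the 6 pairs 0.00018) and their Spearman rho 0.71 (permutation p = 0.00025). Without HCM replicates 12 and 2, the sera farthest from the median of miR-181a-5p, r was 0.69. It was 0.75 within HCM and 0.72 within healthy cats. On slides 1, 2 and 3 it was 0.68, 0.90 and 0.80. The 4 pairings of a miR-181a-5p probe with a miR-181b-5p probe gave r between 0.71 and 0.77, and the deposited values gave 0.74. All values of an array share its scaling. Without scaling r was 0.84, where the median r of miR-181a-5p with the other 542 tested names was 0.43 instead of 0.07.

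The r of miR-181a-5p with miR-181c-5p depended on the processing. With the main values r was 0.68 (permutation p = 0.00029, adjusted 0.00087) and rho 0.81 (permutation p = 2e-05). The 4 pairings of their probes gave r between 0.32 and 0.72, and between 0.81 and 0.92 in the deposited values. Without HCM replicates 12 and 2 r was 0.72. It was 0.59 within HCM, 0.78 within healthy cats, and 0.54, 0.86 and 0.70 on slides 1, 2 and 3. In the deposited values r was 0.92 (permutation p = 1e-05, the smallest that 100000 resamples can give), 0.98 within HCM and 0.82 within healthy cats. It was 0.82, 0.97 and 0.98 on the 3 slides and 0.88 without HCM replicates 12 and 2. With quantile normalization r was 0.40 (permutation p = 0.059, adjusted 0.088), 0.59 within HCM, 0.18 within healthy cats and -0.33, 0.46 and 0.73 on the slides. Without scaling it was 0.55 (permutation p = 0.0055, adjusted 0.011). The deposited values run on below detection: in HCM replicate 12 they were 5.25 for miR-181a-5p and 1.53 for miR-181c-5p, a serum in which 0 of the miR-181c-5p spots were well above background. In HCM replicate 9 they were 7.94 and 3.47. The within-array difference of the 2 names had an SD of 0.40 there. The SDs of the other 5 pairs ran from 0.39 for miR-181b-5p minus miR-181c-5p to 0.83 for miR-181a-5p minus miR-181d. Binding of one family member to the probe of another was not tested.

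For miR-181d, r was 0.53 with miR-181b-5p (permutation p = 0.0087, adjusted 0.017; rho 0.52, permutation p = 0.011), and 0.39 without HCM replicates 2 and 1. It was 0.56 within HCM and 0.47 within healthy cats, and 0.77, 0.36 and 0.60 on slides 1, 2 and 3. Between miR-181d and miR-181a-5p r was 0.31 (permutation p = 0.153; rho 0.28, permutation p = 0.195). Between miR-181c-5p and miR-181d r was 0.45 (permutation p = 0.028, adjusted 0.042; rho 0.37, permutation p = 0.085). It became -0.03 without HCM replicate 9 and healthy replicate 25, so in the main values it rested on those 2 sera. When scaled over all probes it fell from 0.50 to 0.12 without the same 2. After quantile normalization it was 0.48 without HCM replicate 9 and healthy replicate 19. In the deposited values it was 0.41 without HCM replicates 12 and 2. With the main values the r of miR-181c-5p with miR-181d was 0.57 within HCM and 0.31 within healthy cats. On the 3 slides it was 0.64, 0.24 and 0.65. Between miR-181b-5p and miR-181c-5p r was 0.38 (permutation p = 0.072, adjusted 0.087; rho 0.57, permutation p = 0.0054), 0.20 within HCM, 0.60 within healthy cats and 0.21, 0.81 and 0.26 on the slides. The 4 pairings of the probes of miR-181b-5p and miR-181c-5p gave r between 0.005 and 0.48 with the main values. With the deposited values the r of these 2 names was 0.72, and between 0.70 and 0.75 over the pairings. Whether these correlations differ from one another was not tested.

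**Figure D3:**
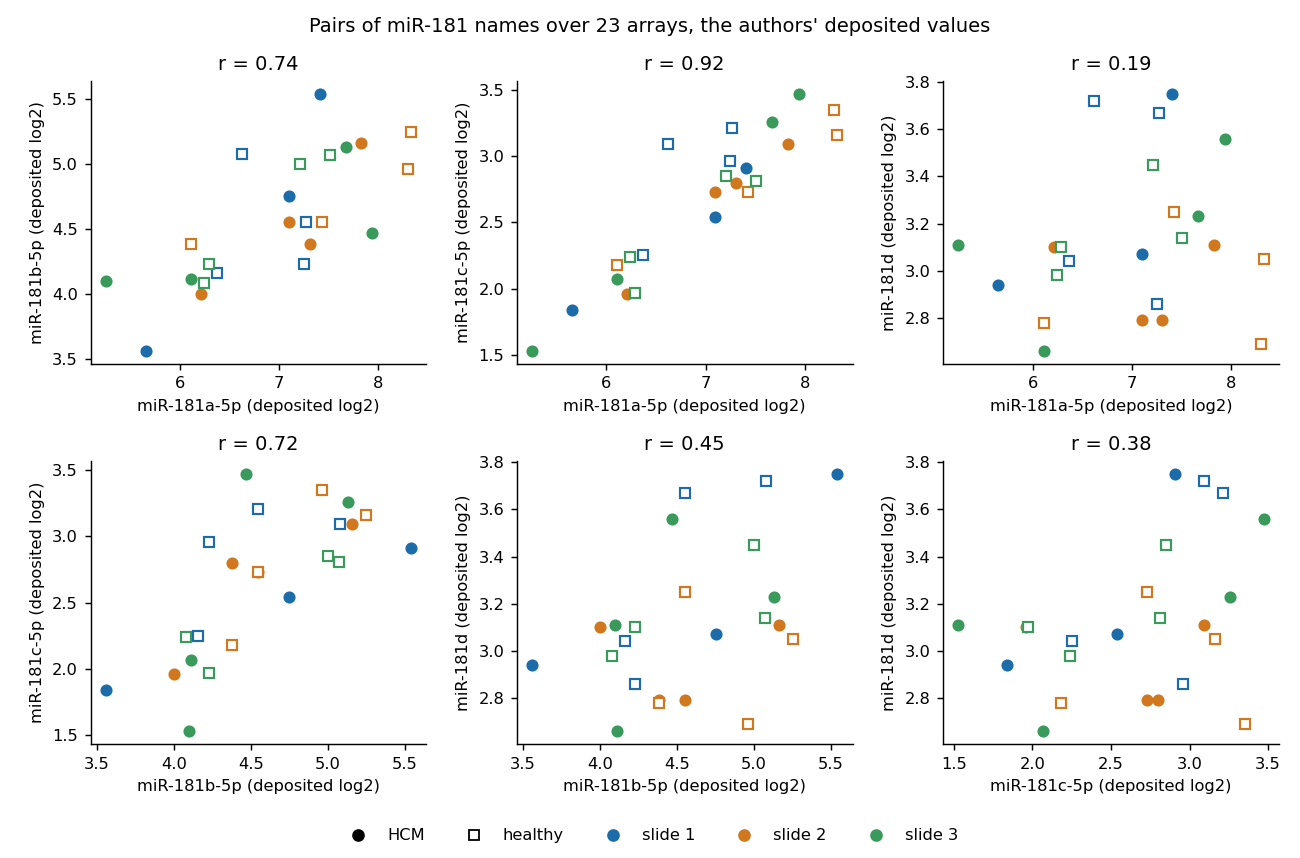
The 6 pairs of miR-181 names over 23 sera, both axes in the authors' deposited log2 values, with filled circles for HCM, open squares for healthy cats and colour for the slide. The r above each panel is Pearson's. miR-181a-5p and miR-181c-5p lie close to a line (r of 0.92), while miR-181a-5p and miR-181d do not (r of 0.19).

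Among the other 542 tested names, those most like miR-181a-5p over the 23 sera were ranked by Pearson r, as a description. miR-30d-5p stood at rank 1 with r of 0.77, miR-181b-5p at rank 2, miR-151a-3p at rank 3 with 0.68 and miR-181c-5p at rank 4. miR-383 (0.66), miR-4659a-3p (0.65) and miR-3189-3p (0.64) came next, and miR-181d stood at rank 130. The lowest r was that of miR-4508, at -0.81. With the deposited values miR-181c-5p stood at rank 1 of 964 names, followed by miR-30d-5p with 0.75. Without scaling miR-181b-5p stayed at rank 2 of 542, but miR-181c-5p stood at rank 151 (r of 0.55) and miR-181d at rank 314 (r of 0.38), with a median r of 0.43 over all names. Without scaling the r of miR-4508 was -0.06, whereas that of miR-30d-5p was 0.85.

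For miR-181b-5p the name with the highest r in the main values was miR-181a-5p, which stood at rank 4 in the deposited values and at rank 10 without scaling. miR-30d-5p (0.74), miR-30e-5p (0.74), miR-324-3p (0.73), miR-494 (0.68) and miR-202-3p (0.65) followed, with miR-181d at rank 24 and miR-181c-5p at rank 64. The lowest r was that of miR-5001-5p, at -0.80, and the median over all names was 0.02. miR-30d-5p, a member of the broadly expressed miR-30 family, was thus at rank 1 or 2 for both names. Its own HCM minus healthy difference was -0.19 (limma adjusted p = 0.799).

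Measures of the arrays and of blood cell content were set beside the family. The log2 75th percentile intensity, the number of names detected and the log2 difference miR-451a minus miR-23a-3p, a measure of haemolysis, were each correlated with the 4 names, which makes 12 relations. Their r lay between -0.25 and 0.13, and the permutation p adjusted over the 12 between 0.899 and 0.900. The closest was that of miR-181d with the haemolysis measure (r of -0.25, permutation p = 0.248; rho of -0.26, permutation p = 0.224), at -0.58, -0.24 and -0.11 on slides 1, 2 and 3 and -0.39 without the 2 sera farthest from the median. In the deposited values that r was -0.39 (permutation p = 0.063, adjusted 0.446). The haemolysis measure was -1.45 ± 1.32 in HCM (SD, n = 11) and -0.58 ± 1.75 in healthy serum (SD, n = 12; permutation p = 0.197). Its part in the miR-181 values was not tested further.

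Of 8 leukocyte miRNAs on the array 3 were tested, and 0 were called, beside 0.00% of all names. They were miR-142-5p at -0.29, miR-342-3p at -0.17 and miR-155-5p, a miRNA of activated lymphocytes, at -0.15 (HCM minus healthy). The median was -0.17, beside -0.10 for all tested names, and 0.37 without scaling. The mean log2 level of the 3 ran from 2.50 to 4.87 over the HCM sera and from 2.50 to 4.45 over the healthy sera. miR-150-5p, which is abundant in mature lymphocytes, was detected in 1 serum of 23, and miR-146b-5p and miR-342-5p in 0. miR-142-5p and miR-342-3p were each detected in 18 sera, 8 HCM and 10 healthy, and miR-155-5p in 6. The r of miR-181a-5p was 0.24 with miR-142-5p and -0.06 with miR-342-3p. For miR-181b-5p it was 0.35 and 0.31.

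Of 9 miRNAs of myeloid cells and platelets 5 were tested, 2 higher and 3 lower in HCM, with 0 called and a median of -0.27 (0.15 without scaling). They included miR-223-3p, which is abundant in neutrophils and platelets, at -0.56, miR-21-5p at -0.52 and miR-151a-3p at -0.27. Higher in HCM were miR-197-3p at 0.15 and miR-24-3p at 0.30. The mean level of the 5 ran from 3.70 to 6.30 in HCM and from 3.86 to 6.87 in healthy sera. The r of the 5 with miR-181a-5p ran from -0.06 (miR-24-3p) to 0.68 (miR-151a-3p), with miR-223-3p at -0.04 and miR-21-5p at 0.31. With miR-181b-5p it ran from -0.01 (miR-223-3p) to 0.63 (miR-151a-3p), with miR-21-5p at 0.55. Of 8 red cell miRNAs 5 were tested, 4 higher and 1 lower (miR-451a at -0.90), with 0 called and a median of 0.07 (0.49 without scaling). Their mean level ran from 7.0 to 10.1 in HCM and from 6.98 to 10.8 in healthy sera. The r of these 5 with miR-181a-5p ran from -0.04 (miR-451a) to 0.45 (miR-92a-3p). With miR-181b-5p it ran from 0.07 (miR-451a) to 0.48 (miR-92a-3p). Of 7 muscle miRNAs only miR-133b was tested, at 0.54 (0.79 without scaling), with 0 called. The part of these cells in the miR-181 values was not tested.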

How the data were processed

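Serum miRNAs of 23 cats were measured on 1-colour Agilent arrays, 1 per cat. Spot intensity in the scanner files is, per the file headers, on a linear scale from Agilent Feature Extraction 10.7.3.1, background-subtracted in the processed signal and not normalized between arrays, plus flags of 0 or 1 (values other than brightness, per the file headers). The authors' deposited table holds log2 values of 1758 probes (965 miRNA names). Set against the scanner files, each column gave r between 0.987 and 0.9998 and a slope between 0.950 and 0.980 per log2 unit, with medians between 2.98 and 3.32. Its normalization stays unknown.

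Processed signals of non-outlier spots (outliers were 1.81% to 3.95%) were averaged per probe and scaled to the 75th percentile, per array, of the 508 probes that all arrays detected. They were then floored at the 5th percentile of scaled signals well above background and log2 transformed. A name was represented by its brightest probe and tested if detected on at least 6 arrays (543 names). Groups were compared by limma 3.58.1 in R 4.3.3 with Benjamini-Hochberg adjustment over all tested names. Slides were tested in a fit with group and slide. Other tests used 100000 permutations or Fisher's exact test (Python 3.11.15, scipy 1.17.1). Tested on simulated data with 543 names and these group sizes, the fit called 32.1% of names changed by 0.5 on the log2 scale, 83.0% of those changed by 1 and 0.76% of unchanged names. In that simulation all changes were upward in HCM, with normal noise drawn independently for each name at its own SD and no floor. Many names were changed at once. The shares are averages over names and are not rates for the miR-181 names. The number of arrays limits the precision.

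The miR-181 names are those of the family's 5p arms. Its 3p arms, the 5 other names most like miR-181a-5p or miR-181b-5p and the name least like each, and up to 4 tested members per cell type list with the smallest p were also named. Names and lists were chosen with earlier results of these data known. Alternatives covered the scaling, the floor, the detection rule, the choice of probe, the slides, single arrays and the deposited values. For the normexp alternative the median spot signal was used. A few names given as undetected or as the lowest or highest of a list were named after their values were seen.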

Additional observations from a re-analysis of the deposited data

Results flagged for a closer look

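The 4 names were checked for a serum apart from the other 3 in each set of 4 arrays that shared a slide and a group, which covered 20 sets. The 3 HCM arrays of slide 1 were too few for this check. One set stood out, that of miR-181c-5p in the healthy sera of slide 3. Healthy replicate 17 was at 2.67, while the other 3 were at the floor of 2.50, so the gap made up the whole range. In the deposited values it did not stand apart. There replicate 17 was at 2.81, beside 2.85, 1.97 and 2.24 in replicates 14, 15 and 16. Chance marks about 1 in 20 such sets, and values held at a common floor make the gap wide.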

How the results depend on the processing

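The 4 group differences stayed short of the adjusted threshold under every alternative run. Without scaling they turned to 0.045 (miR-181a-5p), 0.21 (miR-181b-5p), 0.083 (miR-181c-5p) and 0.031 (miR-181d). miR-181c-5p was also above 0 with the median over spots (0.0021), quantile normalization (0.0078), the total gene signal (0.032) and slide 3 alone (0.24), and miR-181d with quantile normalization (0.031) and the total gene signal (0.041). A doubled floor left miR-181c-5p with no value, since all arrays stood at it. Leaving out single arrays gave ranges of -0.50 to -0.21, -0.36 to -0.14, -0.13 to -0.020 and -0.18 to -0.036 for miR-181a-5p to miR-181d. The count of all names called, 0 with the main values and 0 without any single array (26 to 45 at an unadjusted p under 0.05), was 1 with the deposited values, 13 for deposited probes taken singly, 2 with a lower floor, 4 with the total gene signal, 2 on slide 2 alone and 1 by permutation, and the slide test called 1 after quantile normalization. The cause of these changes was not tested.

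Among pairs, miR-181b-5p minus miR-181c-5p turned to 0.064 in the deposited values. miR-181c-5p minus miR-181d turned to -0.0079 (normexp), -0.0094 (total gene signal) and -0.13 (deposited). Leaving out single arrays moved the 6 pair differences within -0.24 to -0.0019, -0.40 to -0.16, -0.36 to -0.097, -0.31 to -0.094, -0.21 to -0.061 and 0.0032 to 0.13, in the order of the report. Correlations that fell short of the threshold were miR-181a-5p with miR-181c-5p (0.40) and miR-181b-5p with miR-181d (0.49) after quantile normalization. For miR-181c-5p with miR-181d they were 0.39 without scaling, 0.45 with quantile normalization, 0.38 deposited and 0.30 without the 3 dimmest arrays. That of miR-181b-5p with miR-181c-5p passed it without scaling (0.45), deposited (0.72) and with a lower floor (0.71). The detection difference turned for miR-181b-5p with all spots (15.9 percentage points) and for miR-181c-5p with at least 1 spot (4.55), all spots (18.2) and the scanner's call (5.30). In deposited values r with the 75th percentile and with the names detected turned to 0.10 and 0.13 (miR-181a-5p), 0.027 and 0.040 (miR-181c-5p), and 0.16 and 0.11 (miR-181d). The array signal as a covariate, the fits without the dimmest arrays, probes taken singly, the lower floor for correlations and the scanner's call were chosen after seeing the data. No paired analysis was possible because the groups share no replicate numbers. Low signal limits miR-181c-5p and miR-181d. Their median ratios of background-subtracted signal to background were 0.25 and 0.34, beside 7.06 for miR-181a-5p and 1.28 for miR-181b-5p.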
